A study of Mus musculus with 4 samples.

Results

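The metabotropic glutamate receptors described here were 6 genes, Grm2, Grm3, Grm4, Grm5, Grm7 and Grm8, measured by 9 of the 34958 probe sets that the array's probe table gives to a single gene. They were chosen by symbol from a list of 7, taking every probe set that names 1 of them alone. Grm6, the remaining name, had no such probe set and is not analysed here, and 1 further probe set that joins a listed symbol to another gene was not used. The tissue was whole left hippocampus from wild-type mice, taken as 4 biological replicates that the labels number 11, 13, 15 and 17, each on 1 array. Age, sex and strain were not given in the sources used here, and there was 1 group and no treatment, so the questions were which receptors gave signal in this tissue and how far the replicates differed.

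These receptors are class C G protein-coupled receptors that bind glutamate through a large extracellular domain and act as dimers. Group I, here Grm5, couples to Gq and phospholipase C and sits largely around the postsynaptic density. Group II, Grm2 and Grm3, and group III, Grm4, Grm6, Grm7 and Grm8, couple to Gi/o and can lower cyclic AMP. Where these receptors are presynaptic, which does not hold for Grm6, they reduce transmitter release. In the hippocampus Grm5 is known from pyramidal cell dendrites, Grm2 from mossy fibre terminals, Grm3 from astrocytes as well as neurons, Grm7 from the active zone itself and Grm8 from terminals of the perforant path, while Grm4 is best known from cerebellar granule cells and Grm6 from retinal ON bipolar cells.

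All values are log2 intensities made by the authors with RMA. The background limit was 7.20, the interpolated 95th percentile over 46 genes of testis, liver, skin, gut and other tissues, whose median was 3.63. Of these genes 3, Krt10, Lct and Tff1, lay above the limit. A gene under the limit may still be expressed, and because each probe set binds with its own affinity, levels of different probe sets are not ranked. All 6 neuronal markers and 8 of 9 markers of hippocampal fields lay above the limit, among them Snap25 at 11.44 ± 0.027, Wfs1 of CA1 at 8.88 ± 0.19 and C1ql2 of dentate granule cells at 8.96 ± 0.15 (SD, n = 4), while the granule cell factor Prox1 was under it at 5.76 ± 0.073. Of the other cell types, 5 of 5 interneuron, 5 of 5 astrocyte, 3 of 4 oligodendrocyte, 3 of 4 microglial and 1 of 4 choroid plexus markers were above it. None of the 4 measured photoreceptor and retina markers, 3 blood markers or 7 markers of thalamus, striatum and neocortex lay above it. Pearson's correlation between arrays, across genes above the limit, which are not independent replicates, ran from 0.988 to 0.992. The 5' end of Gapdh gave less signal in samples 15 and 17: on the log2 scale the 3' end exceeded it by 0.62 in both samples 11 and 13, by 2.64 in sample 15 and by 3.79 in sample 17.

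Of the 6 receptor genes, 4 lay above the background limit, Grm2, Grm3, Grm5 and Grm7, and 2 lay under it, Grm4 and Grm8. Over the array 34.2% of 18194 genes were above the limit by their brightest probe set. By single probe sets, 5 of 9 receptor probe sets passed, against 24.5% of all that name 1 gene. Grm4 changed sides at a limit of 6.12, the 90th percentile of the same 46 genes, which 48.4% of genes passed. Grm7 lay under a limit of 8.43, the level of the brightest of them, Tff1, which 16.5% of genes passed. Grm2 passed that limit only narrowly, at a mean of 8.447 against 8.428, and at 8.433 in samples 13 and 15. The plot of levels by sample shows the 9 probe sets against both lower limits.

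**Figure D1:**
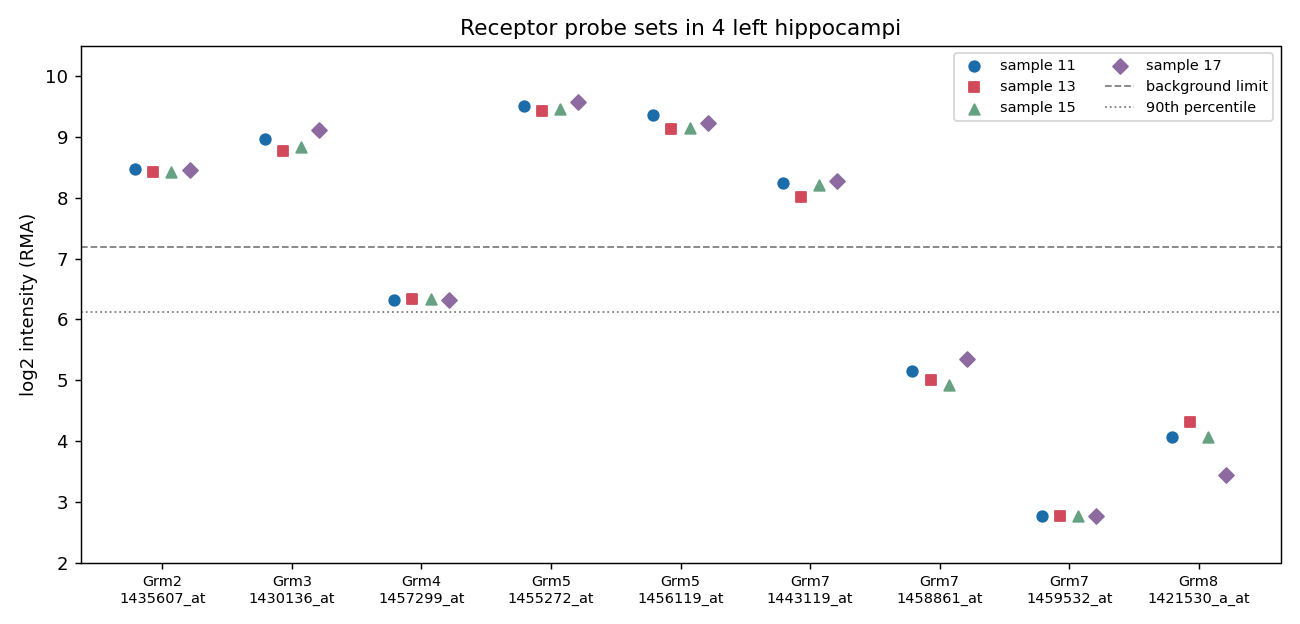
Log2 intensity (y axis) of the 9 receptor probe sets (x axis) in samples 11, 13, 15 and 17, 1 point per array; the dashed line is the background limit of 7.20 and the dotted line the 90th percentile of 6.12. The Grm2, Grm3 and Grm5 probe sets and 1 of the 3 Grm7 probe sets lie above the dashed line in every sample, and Grm4 lies between the lines in every sample.

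Grm5, the group I receptor that raises inositol trisphosphate and calcium, was read by 2 probe sets that both lay above the limit in every sample. Probe set 1455272_at had values of 9.52, 9.43, 9.46 and 9.58 in samples 11, 13, 15 and 17, a mean of 9.50 ± 0.067 (SD, n = 4). Probe set 1456119_at had 9.37, 9.14, 9.15 and 9.24 in the same order of samples, a mean of 9.22 ± 0.11. In both, sample 13 was lowest and sample 15 next, and they differed in the top place, which went to sample 17 in the first and to sample 11 in the second. The whole span was 1.11-fold in the first and 1.18-fold in the second, and the SD was 0.044 in the first without sample 17 and 0.054 in the second without sample 11. Whether the 2 probe sets moved together was tested across all genes with at least 2 probe sets above the limit, as the mean square between samples over that of probe set by sample. With limma's squeezed variances the adjusted p for Grm5 was 0.347 (Benjamini-Hochberg), while 45 of 1684 genes, or 2.67%, passed at 0.05. The miss does not show that Grm5 was equal in the 4 hippocampi. On simulated data the test recovered 25.5% of 200 genes whose probe sets shared differences of SD 0.2, and 84% where the SD was 0.5, among 1684 genes.

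The group II receptors Grm2 and Grm3 were each read by 1 probe set, and both were above the limit in every sample. Grm2, an autoreceptor on glutamatergic terminals, had 8.47 in sample 11, 8.43 in samples 13 and 15 and 8.46 in sample 17, a mean of 8.45 ± 0.017 (SD, n = 4). Its span was 1.02-fold, and 4.34% of probe sets above the limit had a smaller SD. Samples 13 and 15 held exactly the same Grm2 value, which occurs often in this table: 27.7% of probe sets above the limit hold some equal values, and such ties lower the SD. Grm3, which astrocytes also carry, had values of 8.97, 8.78, 8.83 and 9.12 in samples 11, 13, 15 and 17, a mean of 8.93 ± 0.15. Samples 11 and 17 were the higher pair, the span was 1.27-fold, and without sample 17 the SD was 0.10. Of the probe sets above the limit, 84.7% had a smaller SD than Grm3. In whole tissue, fewer cells of a type and less RNA per cell cannot be told apart. The 5 astrocyte markers, all above the limit, had average deviations of -0.11, 0.066, -0.0092 and 0.056 in those samples, and on average samples 11 and 13 stood in the opposite order to Grm3. Slc1a2 went against this average, at 12.04, 11.93, 11.92 and 11.81, and the part of astrocytes in the Grm3 values was not tested.

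The sequences before the start sites of Grm2, Grm3 and Grm8 are shown, for both group II genes and for a group III gene under the limit. No link of these sequences to level or to spread between samples was tested. They are the 250 bases upstream of the annotated start, from RefSeq on build GRCm38.p6, all on the minus strand, at chr9:106656110-106656359 for Grm2, chr5:9725353-9725602 for Grm3 and chr6:28135147-28135396 for Grm8. Capitals mark GGGCGG, the GC box core bound by SP1-family factors, searched on both strands without counting overlaps.
Grm2: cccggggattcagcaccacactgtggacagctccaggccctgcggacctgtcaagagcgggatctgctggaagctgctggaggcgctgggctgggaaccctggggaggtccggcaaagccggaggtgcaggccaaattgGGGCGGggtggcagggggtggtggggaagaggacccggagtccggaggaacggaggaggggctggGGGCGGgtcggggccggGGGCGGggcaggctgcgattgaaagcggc
Grm3: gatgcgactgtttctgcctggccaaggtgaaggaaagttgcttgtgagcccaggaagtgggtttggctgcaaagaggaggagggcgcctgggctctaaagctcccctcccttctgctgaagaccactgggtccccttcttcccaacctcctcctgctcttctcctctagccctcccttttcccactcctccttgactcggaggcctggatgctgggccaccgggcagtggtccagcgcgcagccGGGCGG
Grm8: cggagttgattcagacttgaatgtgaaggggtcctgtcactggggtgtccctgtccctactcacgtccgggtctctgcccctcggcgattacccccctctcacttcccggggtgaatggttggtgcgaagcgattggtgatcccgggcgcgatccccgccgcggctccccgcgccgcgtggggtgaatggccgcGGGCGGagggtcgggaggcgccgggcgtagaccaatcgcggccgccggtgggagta
Grm2 held 3 GC boxes, Grm3 held 1, at the end next to the start site, and this start of Grm8 held 1. Over 32851 promoter entries 32.7% held at least 1 and 7.69% held 3 or more. CpG dinucleotides numbered 16 in Grm2, 8 in Grm3 and 29 in Grm8, against a median of 6 over all entries. The other 2 annotated starts of Grm8 had 8 and 2 CpG and no GC box, so these counts depend on the start chosen. RefSeq entries were found for 5 of the 7 listed genes, 8 entries in all, and 5 of these entries, from 4 genes, held a GC box. The entries of Grm7 overlap and hold the same box, so it is counted in each of them. Grm6 had none in its entry and 4 CpG. A match is a string of letters only, and no binding was measured.

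Grm7, the group III receptor of the active zone, had 3 probe sets on different sides of the limit. Probe set 1443119_at had values of 8.25, 8.01, 8.21 and 8.28 in samples 11, 13, 15 and 17, a mean of 8.19 ± 0.12 (SD, n = 4), above the limit in every sample. Sample 13 stood below the other samples, which lay close together, and without it the SD was 0.033. Probe set 1458861_at was under the limit at 5.15, 5.003, 4.93 and 5.35, with sample 17 highest and sample 15 lowest. Probe set 1459532_at held the same value, 2.77, in all 4 samples, as did 3.25% of all probe sets on the array. Taken as the median over its probe sets, Grm7 was under the limit, so its detection rests on 1443119_at.

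Grm4 and Grm8, group III receptors as well, were under the limit by the single probe set each had. Grm4 had 6.31 in samples 11 and 17 and 6.33 in samples 13 and 15, a mean of 6.32 ± 0.011 (SD, n = 4), with only 2 distinct values. Grm8 had values of 4.06, 4.32, 4.07 and 3.44 in samples 11, 13, 15 and 17, a mean of 3.97 ± 0.38. Sample 17 was lowest and the span of 1.84-fold was the widest of the 9 receptor probe sets, at a level close to the median of the background genes; without sample 17 the SD was 0.14. The Grm8 probe set carries the suffix _a_at, which on these arrays marks probes that read several transcripts of 1 gene. Among the choroid plexus markers, Ttr had 7.36, 9.84, 6.86 and 6.54 in samples 11, 13, 15 and 17, Kl had 5.39, 5.79, 5.47 and 4.99, and Folr1 had 3.77, 3.96, 3.77 and 3.67. These were likewise highest in sample 13 and lowest in sample 17, whereas Kcnj13, at 4.26, 3.66, 3.66 and 3.70, was highest in sample 11. By its mean only Ttr of these markers lay above the limit. The order is not particular to choroid plexus markers: Slc17a6, a vesicular glutamate transporter gene, had 5.59, 6.04, 5.54 and 4.98. How many probe sets of the array share this order was not counted. The part of choroid plexus cells in the Grm8 values was not tested.

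Across the receptors above the limit, sample 13 tended to be low. It was the lowest sample on its own for 4 of the 5 probe sets, including both of Grm5. In Grm2 it shared the lowest value with sample 15. Over the array, 17.9% of the 8579 probe sets above the limit were lowest in sample 13 alone and 45.6% in sample 11 alone. None of the receptor probe sets above the limit was lowest in sample 11. Under the limit, Grm8 was highest in sample 13 and Grm4 in samples 13 and 15, while 1458861_at of Grm7 was lowest in sample 15. Sample 17 was highest for 3 of the 5, Grm3, Grm7 and 1455272_at of Grm5, where 35.5% of all probe sets were. These same 3 were both lowest in sample 13 and highest in sample 17, as were 9.56% of probe sets above the limit. The deviations are small: in sample 13 they ran from -0.18 for Grm7 to -0.014 for Grm2. The neuronal marker list deviated by 0.020, -0.010, -0.020 and 0.011 in samples 11, 13, 15 and 17, and the oligodendrocyte markers above the limit, Mbp, Mag and Mobp, by -0.16, 0.34, -0.052 and -0.13, all 3 being highest in sample 13. Mog, under the limit, was also highest there at 7.07, and the part of myelin content or of the 5' signal in the receptor values was not tested.

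**Figure D2:**
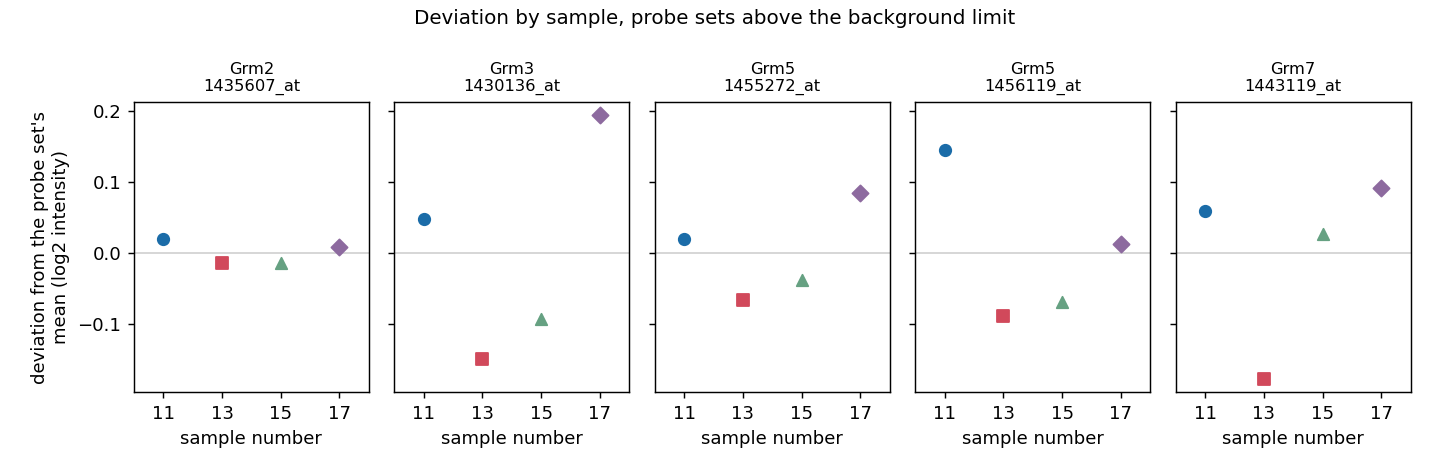
Deviation from the probe set's own mean (y axis, log2 intensity) for the 5 receptor probe sets above the background limit, by sample number (x axis), 1 point per array. Sample 13 is the lowest point in the Grm3, Grm5 and Grm7 panels, at -0.18 for Grm7, and the Grm2 points stay within 0.020 of their mean.

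No receptor probe set passed the test of whether its values spread more widely between samples than those of other probe sets of like level. With limma, the residual variance over the fitted prior gave an adjusted p (Benjamini-Hochberg) of 0.904 for Grm3 and Grm7, 0.907 and 0.904 for 1455272_at and 1456119_at of Grm5 and 1 for Grm2. Over all 8579 probe sets 0, or 0.0%, passed at 0.05, and 278 had an unadjusted p under 0.05, none of them a receptor's. The reach of the test depended on how true variances differ between probe sets. With equal true variances it found 46.5% of 200 simulated probe sets at a 3-fold SD and 98% at a 10-fold SD, but with variances shuffled from the data 0% at either. Neither setting matches these data. The fitted prior had only 2.43 degrees of freedom, so true variances were not taken as equal. The shuffled variances are estimates from 4 values and already hold sampling noise, so 0% may be too low. The counts therefore do not show that the hippocampi were alike. The plot of SD against level places Grm2 and Grm4 low among all probe sets and Grm8 near the upper edge.

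**Figure D3:**
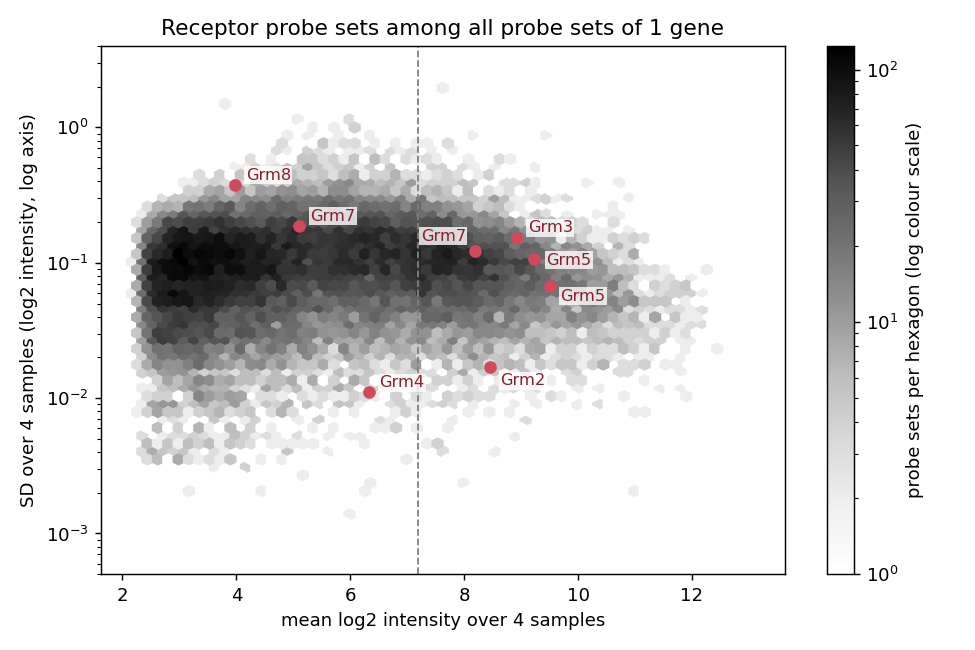
SD over the 4 samples (y axis, log2 intensity, log axis) against mean log2 intensity (x axis) for all probe sets of 1 gene, shaded by number, with the receptor probe sets as red points; the dashed line is the background limit. Grm2 at 0.017 and Grm4 at 0.011 lie low and Grm8 at 0.38 lies high, and the Grm7 probe set with an SD of 0 cannot be drawn on a log axis.

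The pattern most like that of Grm3, the receptor above the limit with the largest SD, was sought among 6213 other genes above the limit, by the root mean square difference of deviations over the 4 samples. The closest were Pcgf6 at 0.014, the sodium channel gene Scn2a at 0.015, Xkr4 at 0.019, Magi3 at 0.023 and the Ras exchange factor gene Rasgrf2 at 0.024. Scn2a, for example, had 10.05, 9.89, 9.92 and 10.22 in samples 11, 13, 15 and 17, highest in sample 17 and lowest in sample 13 like Grm3. The choice of Grm3 rests on sample 17: without it the SD was 0.10 for Grm3 against 0.13 for both 1456119_at of Grm5 and 1443119_at of Grm7. With 4 values per gene and so many genes searched, this is a description and carries no test.

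Of 60 measured genes in 6 lists around the receptors, 45 lay above the limit, against 34.2% of all genes. Not all are signalling partners of the receptors analysed. The lists include glutamate supply and uptake, at 5 of 6, and partners of Grm6, which is not analysed here, at 2 of 8. When each gene was given the median of its probe sets in place of the brightest, 29 of the 60 passed, where 19.9% of all genes did. The route of group I was at 7 of 8: the G protein subunit Gnaq had 10.67 ± 0.052, Gna11 9.76 ± 0.10, phospholipase Plcb1 10.22 ± 0.12, protein kinase C gene Prkcb 11.35 ± 0.023 and Dagla, which turns the diacylglycerol of this route into an endocannabinoid, 8.64 ± 0.094 (SD, n = 4). Plcb4, the phospholipase partner of group I receptors in cerebellum and thalamus, was under the limit at 6.53 ± 0.15. The Gi/o route of groups II and III was at 12 of 14, or 9 at the limit of 8.43 and 6 by the median of each gene's probe sets. Gnai1 was at 10.21 ± 0.066, Gnao1 at 10.84 ± 0.068 and the cyclase Adcy1 at 11.41 ± 0.040. The GIRK potassium channel subunits Kcnj3 at 8.26 ± 0.040 and Kcnj9 at 7.64 ± 0.051 lay under the background gene Tff1 at 8.43. Kcnj9 was also under the background gene Lct at 7.84. The subunit Kcnj6 was under the limit at 6.35 ± 0.17, and so was the cyclase Adcy8 at 5.45 ± 0.087.

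Scaffolds and binding partners were at 12 of 17, or 9 at the limit of 8.43 and 8 by the median of each gene's probe sets. Homer1, which ties Grm5 to the postsynaptic density, had 9.22 ± 0.013, Homer2 8.83 ± 0.20 and Shank3, which Homer links to, 9.94 ± 0.15, while Homer3 was under the limit at 6.57 ± 0.23 and Shank1 at 4.65 ± 0.047. Ncdn, a binding partner of Grm5 also called norbin, had 11.99 ± 0.065, and Grasp, or tamalin, which helps to carry group I receptors, had 9.94 ± 0.10. Of the partners of Grm7, the PDZ protein Pick1 was only 0.20 above the limit at 7.40 ± 0.099, less than the background gene Krt10 at 7.44. Sdcbp, in the same list, was well above the limit at 10.66 ± 0.059, and Grip1 was under it at 6.46 ± 0.058. The synaptic adhesion protein Elfn1, which recruits Grm7 to synapses onto some interneurons, was under the limit at 6.46 ± 0.11. Its relative Elfn2 was above the limit at 8.51 ± 0.043. The desensitisation list was at 7 of 7, or 4 at the limit of 8.43, with the kinase Grk3 at 9.66 ± 0.12, the arrestins Arrb1 at 9.29 ± 0.026 and Arrb2 at 7.84 ± 0.091, and Rgs4, which speeds the return of Gq and Gi to rest, at 9.51 ± 0.11. Of genes for glutamate supply and uptake 5 of 6 passed, or 3 by the median of each gene's probe sets. The vesicular transporter Slc17a7 of cortical and hippocampal neurons had 10.22 ± 0.041 and the astrocyte transporter Slc1a2 11.93 ± 0.094, while Slc17a6, the vesicular transporter of thalamus and brainstem, was under the limit at 5.54 ± 0.43.

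The partners of Grm6 in retinal ON bipolar cells were at 2 of 8, or 1 both at the limit of 8.43 and by the median of each gene's probe sets. Those above the limit were Rgs11 at 7.41 ± 0.26 and Gnb5 at 9.04 ± 0.038 (SD, n = 4), which form a complex that ends G protein signals and which other neurons also express. The channel Trpm1 at 4.10 ± 0.039, the synaptic protein Nyx at 4.29 ± 0.092, the orphan receptor Gpr179 at 3.55 in every sample and Pcp2 at 4.25 ± 0.051 were under it. Rgs11 had values of 7.52, 7.02, 7.51 and 7.58 in samples 11, 13, 15 and 17, so it crossed under the limit in sample 13. The plot of the lists shows each gene's level.

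**Figure D4:**
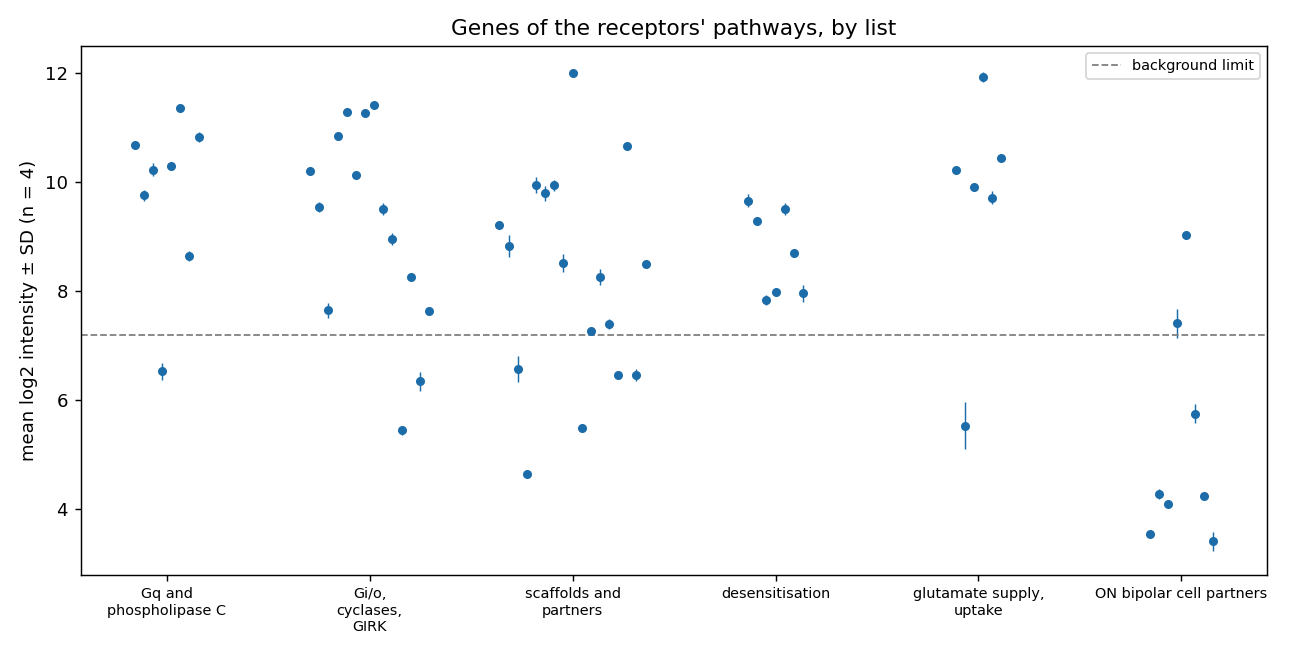
Mean log2 intensity ± SD over 4 samples (y axis) of each measured gene in the 6 pathway lists (x axis), in the order in which the lists name them; the dashed line is the background limit of 7.20. In the ON bipolar cell list 2 of 8 genes lie above the line, and in the desensitisation list 7 of 7 (4 at a limit of 8.43).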

How the data were processed

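Per the labels' protocols, RNA of 4 left hippocampi was DNase-treated, amplified and biotin-labelled after extraction with a Qiagen kit for lipid-rich samples. The authors deposited 45101 log2 intensities per array, which the submitters' processing notes credit to RMA, with no version or settings stated in the sources used here. Array medians ran from 4.67 to 4.71. Of the probe sets, 34958 have 1 symbol, 932 several and 9211 none; symbols were updated through Entrez identifiers of RefSeq (GRCm38.p6), which matched 34754. Each of 18194 genes was represented by its probe set with the highest mean.

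Background genes were 46 measured of 48 listed. Spread was tested with limma (intercept, eBayes with trend and robust fit) on probe sets above the limit; the agreement of a gene's probe sets was tested with squeezeVar, by a test first made after earlier results had been seen. Both were tested on simulated data. Members and lists were chosen with earlier results of these data known. Named were all receptor probe sets, genes of the 6 pathway lists, cell type markers, and the 5 genes most like the most variable receptor above the limit. The p-values measure only the spread between these samples, and the number of arrays limits the precision. Software was limma 3.58.1 under R 4.3.3, and Python 3.11.15 with pandas 2.3.3.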

Additional observations from a re-analysis of the deposited data

Results flagged for a closer look

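Of 67 receptor probe sets and pathway genes with any spread, 11 had 1 sample far from the other 3, by a gap to its neighbour that filled more of the range than Dixon's 95% critical value for 4 samples allows (which chance passes in about 1 of 20 groups). None was a receptor probe set, and 9 of the 11 hold equal values in at least some samples, which makes the remaining gap look large. Of all probe sets on the array, 53.2% hold some equal values. The same count over the whole array was not made, and 1 in 20 is not a share measured there. The 11 of 67 is therefore no result about these genes.

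Sample 17 stood apart in Gnaq, highest at 10.75 against 10.64 to 10.65 in the others, in Siah1a, highest at 7.29 against 7.26, in Gnb5, lowest at 8.98 against 9.06, and in Isl1, lowest at 3.16 against 3.49 to 3.52. Sample 15 stood apart in Prkcb, highest at 11.38 against 11.34, in Gnai1, lowest at 10.11 against 10.23 to 10.25, and in Homer2, highest at 9.13 against 8.71 to 8.75. Sample 11 stood apart in Gng2, highest at 10.13 against 10.12, and in Adcy8, lowest at 5.32 against 5.49. Sample 13 stood apart in Homer1, lowest at 9.20 against 9.22, and in Rgs11, lowest at 7.02 against 7.51 to 7.58.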

How the results depend on the processing

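The 4 receptors above background remained Grm2, Grm3, Grm5 and Grm7 with any sample left out, without samples 15 and 17, after quantile normalization again and with arrays centred on their medians. There were 5 at the 90th percentile, where Grm4 joined, and 3, without Grm7, at the highest background gene and with the median over probe sets. At the highest background gene Grm2 passed only narrowly, at 8.447 against 8.428. Receptor probe sets above background numbered 4 to 6 over the limits tried. Pathway genes above background numbered 45, and 44 to 45 with a sample left out, 50 at the 90th percentile, 35 at the highest background gene and 29 with the median over probe sets, where the cause is the lower level of the other probe sets of a gene. No receptor passed the spread or the agreement test under the alternatives run for each, including an adjusted p of 0.1 and no filter on level; leaving out samples 15 and 17 together was run for agreement only. The adjusted p of Grm5 for agreement ran from 0.222 to 0.735, and the smallest of any receptor for spread from 0.849 to 0.935. Over all genes the agreement test called 3 to 147. The spread test called 0 probe sets over the array in every setting, so its outcome does not set the receptors apart. Of 63 recomputed SDs 13 moved by over 1.5 times: the Grm3 SD was 0.10 without sample 17, that of Grm8 0.14, and that of Grm2 0.036 after quantile normalization again. No paired analysis was possible because there is 1 group. A limit from the background list of an earlier analysis was not run, because that list was not available. Any limit under 6.32, the level of Grm4, puts Grm4 above background, and the limit known from that earlier analysis was such a limit.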
